A study of Mus musculus with 4 samples.

Results

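At embryonic day 14 (E14), neural progenitors with a conditional deletion of *Stat3* (*Stat3* cKO) were compared with control progenitors (CTL) across all expressed genes and gene families. Levels are in FPKM, a fragment count divided by transcript length and by library size. Entries entered the comparison if they averaged 1 FPKM or more across all 4 libraries of the study, which held for 12449 of 21091, and each was read as the plain ratio of *Stat3* cKO to CTL. A ratio could be formed for 12430 of them. Both groups came from C57BL/6 mice, were isolated from E14 brains and were kept in suspension culture for 3 days. They grew as neurospheres in serum-free medium with EGF and FGF. In the *Stat3* cKO embryos both *Stat3* alleles were floxed, and Cre driven by a rat Nestin promoter and enhancer removed exons that encode the SH2 domain, so the deletion was limited to cells in which this driver was active. The sample labels and the sequencing methods call the control wild type, whereas the animal methods name Nestin-Cre embryos heterozygous for the floxed allele as controls. If the CTL embryos lacked Cre, then the ratios also set cells with Cre against cells without it. Whether embryos were pooled is not stated. The other 2 libraries are E11 CTL and E11 *Stat3* cKO, made in the same way from embryos of embryonic day 11, and their values are given beside those of E14. Each group had 1 library. No difference could therefore be set against a spread between replicates, no test between the genotypes was possible, and "higher" and "lower" below describe these libraries.

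STAT3 is a transcription factor that is phosphorylated by JAK kinases when cytokines of the interleukin-6 family, such as LIF and CNTF, bind receptors that share the gp130 subunit. It then enters the nucleus as a dimer and binds a palindromic DNA element. In the developing brain this pathway is best known for driving astrocyte genes such as *Gfap*, and it acts beside FGF and EGF signalling through ERK, which keeps cultured progenitors dividing, and beside Notch signalling between neighbouring cells, which holds progenitors undifferentiated.

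*Stat3*, the targeted gene, stood at 27.6 FPKM in CTL and 9.55 FPKM in *Stat3* cKO at E14, a log2 ratio of -1.53. At E11 it was at 7.41 FPKM in CTL and 6.74 FPKM in *Stat3* cKO. The value covers the whole gene and not the floxed exons alone. The markers fixed for the labelled cell type were present in both E14 libraries. *Sox2* (a stem cell transcription factor) had 206 FPKM in CTL and 284 FPKM in *Stat3* cKO, and *Nes* (nestin) had 109 and 111 FPKM. Markers of most other cells were low at E14, with *Ttr* and genes that glia share as exceptions. The 22 listed microglia and leukocyte markers had 7 members that passed the minimum, which summed to 3.73 FPKM in CTL and 2.201 FPKM in *Stat3* cKO, and *Aif1* was listed at 0 in CTL. Of the 22 endothelial and pericyte markers 5 passed, with sums of 9.69 and 10.2 FPKM, and *Sox17* was listed at 0 in CTL. The mesenchyme and meninges list had 25 of 27 members that passed, mainly through E11, and summed to 20.6 FPKM in CTL and 15.3 FPKM in *Stat3* cKO against 1127 and 953 FPKM at E11. The 6 choroid plexus and ciliated cell genes that passed summed to 132 and 99.0 FPKM, nearly all of it *Ttr* (transthyretin) at 118 and 82.2 FPKM, and *Tmem212* was listed at 0 in both. The 4 of 12 neural crest genes that passed summed to 169 and 542 FPKM, nearly all of it *Ednrb* and *Sox10*, which glial progenitors also carry. Of 12 erythroid genes only *Hbb-y* passed, at 1.87 and 0.852 FPKM, and *Hba-x* was listed at 0 in CTL. The part of these cells in the ratios was not tested. In such bulk libraries, fewer cells of a type and less RNA per cell cannot be told apart.

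Sex-linked genes separated the E14 libraries. The 4 Y-linked genes of the list were listed at 0 in both E11 libraries and had the highest ratios among entries of at least 5 FPKM at E14. *Ddx3y* went from 0.0569 FPKM in CTL to 25.1 FPKM in *Stat3* cKO, *Uty* from 0.0412 to 14.7, *Kdm5d* from 0.0404 to 13.9 and *Eif2s3y* from 0.123 to 40.02 FPKM. *Xist*, the RNA that coats the inactive X chromosome, had 13.6 FPKM in CTL and 0.0370 FPKM in *Stat3* cKO at E14, with 46.9 and 39.7 FPKM in the E11 libraries. The X-linked partners of the Y genes were all lower in E14 *Stat3* cKO, from *Kdm6a* at 10.6 and 8.85 FPKM to *Eif2s3x* at 199 and 105 FPKM. The genotype and the sex of the embryos cannot be told apart by these libraries. Without the X and Y chromosomes, 220 entries were 2-fold higher or more and 201 were 2-fold lower or more.

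In all, 230 of 12430 entries were at least 2-fold higher in E14 *Stat3* cKO than in E14 CTL, which is 1.85%, and 210 were at least 2-fold lower, which is 1.69%. At a ratio of 1.5, 724 were higher (5.82%) and 953 lower (7.67%). The median log2 ratio was -0.08, with the middle 50% of entries between -0.29 and 0.14, and 60.1% of ratios were below 1. Scaling each library to its upper quartile, which was 32.3 FPKM in CTL and 29.1 FPKM in *Stat3* cKO, added 0.15 to every log2 ratio and moved the median to 0.07, so a log2 ratio between 0 and -0.15 has no direction that holds under both scalings. Low entries spread more than high ones. Among the 1243 entries lowest at E14, up to 1.59 FPKM, the median log2 ratio was 0.08 and 126 passed 2-fold, whereas among the 1243 highest, from 77.2 FPKM, the median was -0.17 and 27 passed. Of the 230 higher entries 60 had a mean under 1 FPKM over the E14 libraries and 97 had at least 5 FPKM. Of the 210 lower entries 33 were under 1 FPKM and 114 had at least 5 FPKM. The spacing of the lowest values put about 41.4 fragments behind 1 FPKM on 1 kb of transcript in the E14 CTL library and 45.6 in the *Stat3* cKO library, an estimate that covers counting only and leaves few fragments behind the ratios of short or low entries.

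**Figure D1:**
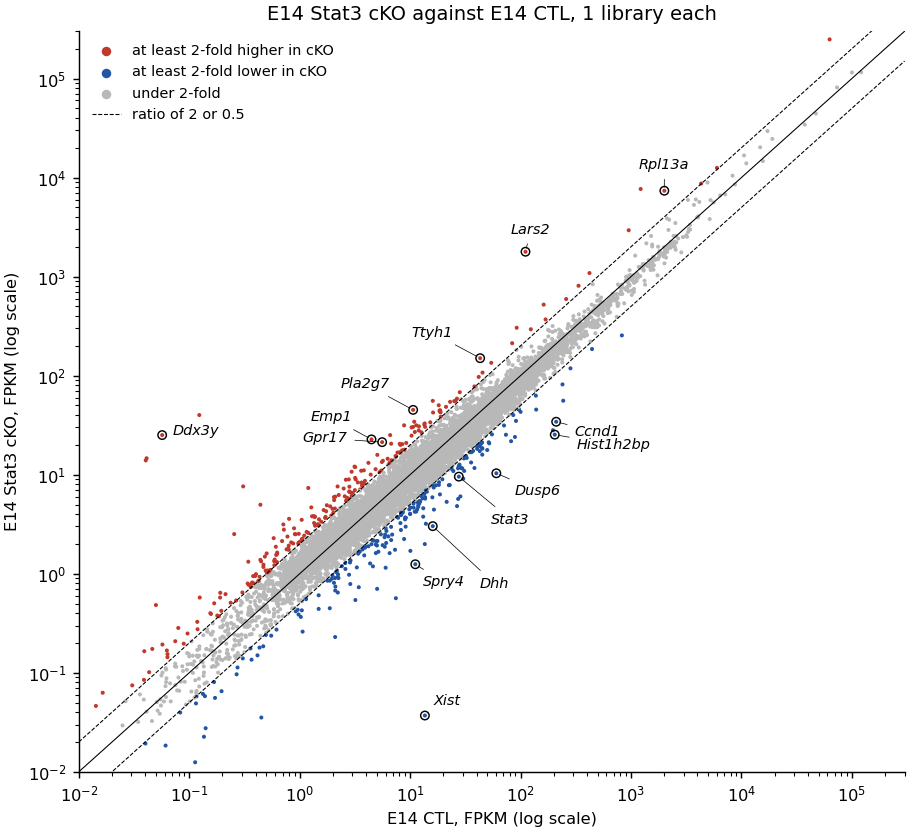
Each dot is 1 entry, with its FPKM in E14 CTL on the x axis and in E14 *Stat3* cKO on the y axis, both on log scales. The dashed lines mark ratios of 2 and 0.5. The 230 red entries lie above and the 210 blue entries below, and the Y-linked *Ddx3y* and the X-linked *Xist* lie farthest from the diagonal among the circled genes.

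Among the 8414 single-gene entries that averaged 5 FPKM or more at E14, with small RNAs, predicted transcripts and pseudogenes set aside, the highest ratio outside the Y chromosome was that of *Lars2*, the mitochondrial leucyl-tRNA synthetase. It had 110.8 FPKM in CTL and 1782 FPKM in *Stat3* cKO, but 2331 and 2558 FPKM at E11, so E14 CTL was the library that stood apart. *Emp1*, a small membrane glycoprotein, followed with 4.47 and 22.7 FPKM, and *Pla2g7*, the secreted platelet-activating factor acetylhydrolase, with 10.7 and 45.1 FPKM. *Gpr17*, a receptor of immature oligodendrocytes, went from 5.58 to 21.3 FPKM. *Ttyh1*, a chloride channel family member of neural stem cells and astrocytes, went from 43.1 to 150.1 FPKM. *Cdkn1c*, the imprinted cyclin-dependent kinase inhibitor p57, went from 16.05 to 55.6 FPKM. *Scrg1* went from 3.14 to 12.1 FPKM, *Capn5* (a calpain protease) from 3.18 to 11.9, *Cd82* (a tetraspanin) from 2.95 to 10.7 and *Kcne1l* (a potassium channel subunit, listed on the X chromosome) from 8.82 to 31.5 FPKM. *Rpl13a*, a ribosomal protein gene, was at 2003 FPKM in CTL and 7361 FPKM in *Stat3* cKO. Its locus is listed with the same bounds as those of *Snord35a*, at 1223 and 7669 FPKM, and *Snord32a*, at 15249 and 0 FPKM, so its ratio is uncertain.

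The lowest ratios were led, after *Xist*, by *Spry4*, a Sprouty inhibitor of receptor kinase signalling. It had 11.1 FPKM in CTL and 1.25 FPKM in *Stat3* cKO, which is 8.94-fold lower. *Dusp6*, the phosphatase that removes phosphate from ERK, went from 60.4 to 10.3 FPKM, *Spry1* from 28.5 to 6.04 and *Ier3*, an immediate early gene, from 8.83 to 2.24 FPKM. *Ccnd1*, cyclin D1, went from 210.1 to 34.2 FPKM, which is 6.14-fold lower, while at E11 it had 101 FPKM in CTL and 120.3 FPKM in *Stat3* cKO. These 5 genes lie on the path from FGF and EGF receptors through ERK or are known to respond to it. The histone gene *Hist1h2bp* went from 204 to 25.4 FPKM. Secreted ligands were also among the lowest ratios, with *Spp1* (osteopontin) from 13.6 to 1.99 FPKM, *Apln* (apelin) from 10.1 to 1.70 FPKM and *Dhh* (desert hedgehog) from 16.04 to 3.02 FPKM. *Tnfrsf12a*, the receptor of the cytokine TWEAK, went from 26.6 to 4.82 FPKM and the neuronal pentraxin *Nptx2* from 27.2 to 5.69 FPKM. *Arhgap29* and *Rassf3*, both linked to small GTPases, went from 13.9 to 3.196 and from 21.4 to 5.32 FPKM, and *Igfbp3* from 82.1 to 21.8 FPKM. At E11 the ratio lay below 1 for 8 of the 15 genes with the lowest ratios and above 1 for 7. Of the 15 with the highest ratios it lay above 1 for 5 and below 1 for 6, and the 4 Y-linked genes had none.

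The gp130 and JAK-STAT genes themselves were mostly within a ratio of 1.5. Of the 8 STAT and JAK genes that passed, *Stat3* was the only one past a ratio of 1.5 in either direction. The kinase *Jak2*, for one, had 36.0 FPKM in CTL and 33.5 FPKM in *Stat3* cKO. *Il6st*, which encodes gp130, had 7.58 and 7.73 FPKM and *Lifr*, the LIF receptor, 10.2 and 9.84 FPKM. *Cntfr* and *Il11ra1*, which give CNTF and interleukin-11 their specificity, were at least 1.5-fold higher, at 2.85 and 4.28 FPKM and at 4.45 and 7.25 FPKM, which is 2 of the 6 members that passed against 5.82% of all entries. None of the 14 SOCS, PIAS and phosphatase genes, which restrain the pathway, passed a ratio of 1.5. The feedback inhibitor *Socs3*, a classical STAT3 target, had 2.78 FPKM in CTL and 2.34 FPKM in *Stat3* cKO.

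Textbook STAT3 targets were lower as a list. Of the 18 of 24 that passed, 6 were at least 2-fold lower and none at least 2-fold higher, 16 had a ratio below 1, and the median log2 ratio was -0.63 against -0.08 over all entries and -0.13 for the list at E11. The E14 median was -0.34 at a minimum of 5 FPKM and -0.35 with a pseudocount of 1. It was -0.45 without the sex chromosomes, and also -0.45 with the minimum set over the E14 libraries. *Ccnd1* led them. *Timp1*, an inhibitor of matrix metalloproteinases, went from 2.87 to 0.787 FPKM, *Fos* from 6.74 to 2.19 and *Junb* from 4.96 to 2.14 FPKM. *Cebpd*, a transcription factor of the acute phase response, went from 2.09 to 0.904 FPKM, and the adhesion receptor *Icam1* from 0.468 to 0.185 FPKM, both at low levels. *Myc* had 5.85 and 3.35 FPKM and *Irf1*, an interferon regulatory factor, 4.25 and 2.44 FPKM. The exceptions were *Vegfa*, at 12.4 and 12.8 FPKM, and *Bcl6*, a transcriptional repressor, at 2.24 and 2.88 FPKM. *Gfap* did not pass the minimum, at 0.901 FPKM in CTL and 0.186 FPKM in *Stat3* cKO. *Fos*, *Junb*, *Myc* and *Ccnd1* also respond to ERK, and the list does not separate the 2 inputs.

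STAT proteins bind the palindrome TTCNNNGAA, which reads the same on both strands. It was searched in the windows from 250 bases before to 50 bases after the start sites in RefSeq on GRCm38.p6, where TTCCNGGAA is the stricter form contained in it. The upstream 250 bases are printed for the textbook target genes that held it and for *Emp1* and *Pla2g7* among the 15 highest ratios. *Cd82*, also among these, held it only past the start site and is not printed. No gene among the 15 lowest ratios that had a window held it, so the printed windows are not a balanced choice. The motif stands in capitals, 5′ to 3′ on the strand of the gene.
*Icam1* (chr9:21015690-21015939, plus strand): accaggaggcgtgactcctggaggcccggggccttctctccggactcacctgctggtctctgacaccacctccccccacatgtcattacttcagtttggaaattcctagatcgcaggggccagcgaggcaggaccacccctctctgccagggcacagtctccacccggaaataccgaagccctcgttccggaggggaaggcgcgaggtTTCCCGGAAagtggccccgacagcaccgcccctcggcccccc
*Irf1* (chr11:53769764-53770013, plus strand): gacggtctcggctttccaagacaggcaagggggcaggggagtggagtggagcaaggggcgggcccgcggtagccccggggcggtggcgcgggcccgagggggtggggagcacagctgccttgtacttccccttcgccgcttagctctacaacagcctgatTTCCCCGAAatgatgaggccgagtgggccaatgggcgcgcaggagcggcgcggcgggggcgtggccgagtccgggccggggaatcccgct
*Socs3* (chr11:117969367-117969616, minus strand): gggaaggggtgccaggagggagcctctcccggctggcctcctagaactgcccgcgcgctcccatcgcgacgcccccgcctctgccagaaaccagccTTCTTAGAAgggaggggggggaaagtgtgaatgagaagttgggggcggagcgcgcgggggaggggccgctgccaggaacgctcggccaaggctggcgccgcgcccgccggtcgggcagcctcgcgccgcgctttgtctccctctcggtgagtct
*Bcl6* (chr16:23981284-23981533, minus strand): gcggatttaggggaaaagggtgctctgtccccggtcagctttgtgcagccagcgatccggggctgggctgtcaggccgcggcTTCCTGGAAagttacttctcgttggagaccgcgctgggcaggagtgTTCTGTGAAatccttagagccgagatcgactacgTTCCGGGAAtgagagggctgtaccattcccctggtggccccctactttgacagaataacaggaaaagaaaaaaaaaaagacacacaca
*Emp1* (chr6:135362681-135362930, plus strand): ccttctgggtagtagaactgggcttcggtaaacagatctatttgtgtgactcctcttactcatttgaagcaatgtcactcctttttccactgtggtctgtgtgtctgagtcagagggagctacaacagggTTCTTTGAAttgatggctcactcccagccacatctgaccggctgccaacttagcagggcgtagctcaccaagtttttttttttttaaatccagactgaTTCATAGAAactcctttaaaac
*Pla2g7* (chr17:43568201-43568450, plus strand): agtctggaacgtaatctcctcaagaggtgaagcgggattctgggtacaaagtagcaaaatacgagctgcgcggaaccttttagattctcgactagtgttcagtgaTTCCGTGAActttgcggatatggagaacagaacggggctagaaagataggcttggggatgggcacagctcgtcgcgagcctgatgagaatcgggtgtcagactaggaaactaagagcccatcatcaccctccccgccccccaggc
The motif of *Icam1* began 42 bases before the start and that of *Socs3* 154 bases before it, and the window of *Bcl6* printed here held 3, of which 2 had the stricter form. A second start site of *Bcl6* held the motif 118 bases before it. Of these genes *Icam1* was 2-fold lower, *Irf1* had a log2 ratio of -0.80, *Socs3* one of -0.25 and *Bcl6* one of 0.36. The motif lay in 6.52% of 12611 windows, in 18 of 206 windows of genes at least 2-fold lower (8.74%), in 16 of 202 windows of genes at least 2-fold higher (7.92%), in 5 of 20 windows of the textbook targets (25%) and in none of 14 windows of the FGF-ERK list. RefSeq windows matched 9827 of 12339 single-gene entries, 79.6%, which is under the 80% set for such a check, so the comparison of shares is void and the shares are given as a description of the matched windows. A match is not a bound site, and no match says only that these letters are absent from the window.

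The feedback and target genes of FGF-ERK signalling had the lowest median of the 71 lists with at least 5 members with a ratio. The lists were chosen with earlier results of these data known, and *Spry4*, *Dusp6*, *Spry1* and *Ier3* are among the 15 lowest ratios above. The rank is therefore a description only. Sprouty and SPRED proteins block the path from receptors to ERK, DUSP phosphatases switch ERK off, and ETS factors of the ETV4 group and immediate early genes carry its output. Of the 18 of 21 members that passed, 9 were at least 2-fold lower in E14 *Stat3* cKO, none was at least 2-fold higher, and 16 had a ratio below 1. The median log2 ratio was -1.01, against -0.02 for the same genes at E11. *Spry2* went from 73.7 to 25.3 FPKM, beside *Spry4* and *Spry1* above, and *Dusp4* from 28.8 to 14.7 FPKM. Among the ETS factors, *Etv5* went from 51.5 to 21.2 FPKM and *Etv4* from 37.1 to 23.8 FPKM, while *Etv1* had 20.3 and 21.0 FPKM. *Egr1*, an immediate early transcription factor, went from 3.85 to 1.84 FPKM. Several of these genes were far higher in E14 CTL than in either E11 library. *Spry2* had 6.52 and 7.38 FPKM at E11, *Etv5* 5.43 and 4.61 FPKM, and *Spry4* 0.795 and 0.593 FPKM, and in E14 *Stat3* cKO all 3 still lay above their E11 levels. *Dusp6*, at 14.6 and 12.4 FPKM at E11, was also far higher in E14 CTL, but in E14 *Stat3* cKO it lay below both E11 values. *Ier3* and *Dusp4* were not higher in E14 CTL, with 16.9 and 18.3 FPKM and 38.3 and 36.4 FPKM at E11.

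The receptors upstream did not share the lower ratios of these genes. Of 21 receptor tyrosine kinases that passed, 2 were at least 2-fold higher, 9 were at least 1.5-fold higher and none was 1.5-fold lower, with 13 ratios above 1 and 8 below. *Fgfr2* went from 13.6 to 32.9 FPKM and *Fgfr3* from 45.9 to 73.6 FPKM, whereas *Fgfr1* had 12.2 and 8.67 FPKM. *Egfr*, the receptor of the EGF in the medium, had 43.3 FPKM in CTL and 42.8 FPKM in *Stat3* cKO. *Pdgfra*, the PDGF receptor of oligodendrocyte precursors, went from 35.9 to 61.2 FPKM, and *Ntrk2*, a neurotrophin receptor, from 53.6 to 85.6 FPKM. In the IGF axis, 4 of 15 members were at least 1.5-fold lower and 3 at least 1.5-fold higher. *Igfbp3* had the lowest ratio, *Igfbp2*, the most abundant binding protein, went from 646 to 436 FPKM, and the receptor *Igf1r* had 4.57 and 4.23 FPKM.

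Notch pathway genes were higher as a list. Of 24 of 27 members that passed, 5 were at least 2-fold higher and 1 was lower by that much, 19 had a ratio above 1, and the median log2 ratio was 0.41, against 0.12 at E11. The ligands of the Delta class were higher, with *Dll1* at 29.0 and 57.8 FPKM and *Dll3* at 18.5 and 44.5 FPKM, while the ligand *Jag1* was lower, at 8.57 and 4.24 FPKM. The 3 receptors that passed were all higher, with *Notch1* at 9.49 and 16.1 FPKM, *Notch2* at 5.67 and 9.47 FPKM and *Notch3* at 3.83 and 8.15 FPKM. Of the effectors, *Hes5* had 124 and 294 FPKM, the feedback gene *Nrarp* 36.9 and 61.7 FPKM and *Hey1* 32.3 and 44.4 FPKM. *Hes1* went the other way, with 27.3 FPKM in CTL and 17.2 FPKM in *Stat3* cKO. The DNA-binding partner *Rbpj* had 15.7 and 15.6 FPKM.

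The other morphogen pathways had no common direction. In the BMP list 2 of 25 members passed 2-fold, in opposite directions. *Bmp7* was at 22.9 FPKM in CTL and 7.85 FPKM in *Stat3* cKO, *Bmp4* was at 0.448 and 1.33 FPKM, and the target genes *Id1* and *Id3* had 40.5 and 35.4 FPKM and 131 and 133 FPKM. In the TGF-beta list the receptor *Tgfbr2* was the only one of 13 past 2-fold, at 2.80 and 0.977 FPKM. In the Hedgehog list *Dhh* was the only one of 13 past 2-fold, and the receptor and target *Ptch1* was at 4.63 and 7.96 FPKM. In the Wnt list 3 of 40 passed 2-fold in each direction, with the ligand *Wnt7b* at 30.2 and 55.2 FPKM, the antagonist *Dkk3* at 5.55 and 13.4 FPKM, the receptor *Fzd10* at 6.35 and 2.38 FPKM and the agonist *Rspo3* at 12.3 and 5.35 FPKM.

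**Figure D2:**
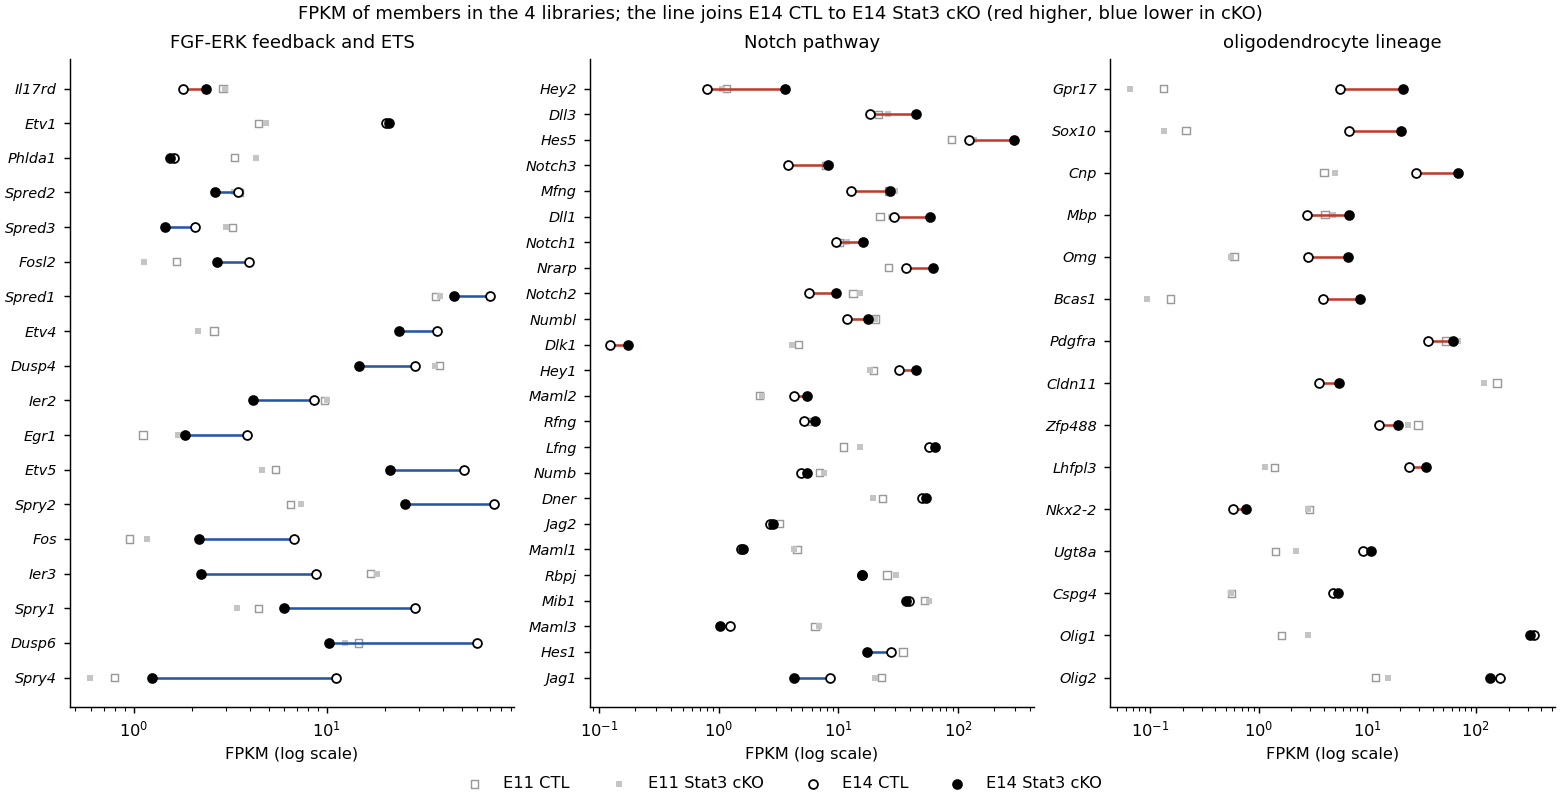
FPKM on a log scale is plotted for the members of 3 lists, with 1 oligodendrocyte gene not drawn, with open circles for E14 CTL, filled circles for E14 *Stat3* cKO and squares for the E11 libraries. The lines run to the left for 16 of 18 FGF-ERK genes and to the right for 19 of 24 Notch genes and 13 of the 15 oligodendrocyte lineage genes drawn.

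Of 24 neural stem and radial glia genes, *Hes5* was at least 2-fold higher and *Hopx*, at 38.3 and 11.7 FPKM, at least 2-fold lower. *Slc1a3*, the glutamate transporter GLAST, was nearly equal at 206 FPKM in CTL and 207 FPKM in *Stat3* cKO. The LIN28, HMGA and IMP genes are high in early progenitors and decline with age. Of the 6 that passed 5 had a ratio below 1, with *Hmga2* at 2.22 and 0.927 FPKM and *Igf2bp1* at 5.35 and 3.77 FPKM. Among 18 proneural and intermediate progenitor genes, *Gadd45g* had 26.5 and 58.5 FPKM and *Neurog2* 13.05 and 20.9 FPKM, while the later neuronal factor *Neurod6* had 104 and 72.0 FPKM and *Eomes*, of intermediate progenitors, 8.498 and 7.33 FPKM. None of 31 neuronal cytoskeleton and RNA-binding genes passed a ratio of 1.5, but 24 had a ratio below 1, against 60.1% of all entries, and the median of -0.16 lay about at the shift between scalings, with *Gap43*, of growing axons, at 199 and 134 FPKM and *Dcx* (doublecortin) at 51.4 and 37.9 FPKM. Of 35 synapse and channel genes *Camk2b* alone passed 2-fold, at 40.3 and 19.4 FPKM.

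Genes of the ventral forebrain and of GABAergic neurons leaned upward, with 19 of 21 ratios above 1 and a median log2 ratio of 0.38, against -0.07 at E11 and 0.22 for its members at a minimum of 5 FPKM. Of these 3 were at least 2-fold higher, namely *Dlx2* at 0.613 and 1.55 FPKM, *Gsx2* at 2.56 and 6.05 FPKM and *Nkx2-1* at 1.16 and 2.65 FPKM, which are transcription factors of the ganglionic eminences. Their levels were low. *Sst*, a peptide of interneurons, had 35.8 and 48.1 FPKM, and *Calb2* (calretinin) was lower, at 13.9 and 6.93 FPKM. *Emx1*, a factor of the dorsal forebrain, had 24.2 and 19.3 FPKM. Of 27 regional patterning genes 3 passed 2-fold, 1 upward and 2 downward, and all 3 had under 1 FPKM at E14. None of 38 HOX genes passed the minimum.

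Glial lineage genes were higher in E14 *Stat3* cKO. Of 16 of 21 oligodendrocyte lineage genes that passed, 7 were at least 2-fold higher, none was lower by 1.5-fold, and the median log2 ratio was 0.68, against -0.01 at E11. *Sox10*, the transcription factor that commits cells to this lineage, had 6.74 FPKM in CTL and 20.6 FPKM in *Stat3* cKO. Genes of myelin followed, with *Cnp* at 28.2 and 68.0 FPKM and *Mbp* at 2.82 and 6.75 FPKM. The early factors *Olig1* and *Olig2*, which act before *Sox10*, did not share this, with 345 and 311 FPKM and 168 and 134 FPKM. *Ednrb*, an endothelin receptor on the neural crest list that glial progenitors also carry, had 162 and 521 FPKM. *Sox10* is on the crest list too, and 3 of its 4 members that passed were at least 2-fold higher, while *Tfap2b* and *Pou4f1* lay under 1 FPKM in both libraries.

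Of 26 of 28 astrocyte genes that passed, 9 were at least 2-fold higher and 1 was lower by that much, with a median log2 ratio of 0.58 against -0.23 at E11. *Apoe*, the lipid carrier, had 92.2 FPKM in CTL and 304 FPKM in *Stat3* cKO, *Cst3* (cystatin C) 335 and 808 FPKM and *Ndrg2* 54.3 and 135 FPKM. *Slc1a2* and *Gja1*, a glutamate transporter and a gap junction protein of mature astrocytes, had 4.42 and 5.07 FPKM and 13.1 and 15.7 FPKM. *Cd44*, the receptor of hyaluronan, was the one that was 2-fold lower, at 11.0 and 4.23 FPKM. Gliogenic factors upstream of these genes had ratios on both sides of 1, with *Nfia* at 7.65 and 6.22 FPKM and *Sox9* at 6.83 and 9.47 FPKM. The median of this list of 10 was 0.10, and it turned to -0.14 at a minimum of 5 FPKM.

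Genes of G1 and S phase were lower and those of mitosis were not. Cells license origins with CDC6, CDT1 and the MCM helicase before S phase, and pass from G1 into S phase through cyclins D and E. Of 30 G1 cyclins, CDKs and inhibitors, 3 were at least 2-fold lower, 11 at least 1.5-fold lower and 1 higher, with a median log2 ratio of -0.41 against 0.25 at E11. Beside *Ccnd1*, *Ccne2* had 18.6 and 6.32 FPKM, *Ccne1* 19.6 and 8.99 FPKM and *Ccnd2* 65.2 and 33.5 FPKM. The inhibitors differed among themselves, with *Cdkn1c* higher, *Cdkn1a* (p21) lower at 5.32 and 2.68 FPKM and *Cdkn1b* (p27) at 89.1 and 103 FPKM. Of 48 DNA replication genes 5 were at least 2-fold lower, 28 at least 1.5-fold lower and none 1.5-fold higher, with a median of -0.66. *Cdc6* had 11.4 and 4.24 FPKM, *Orc1* of the origin recognition complex 3.84 and 1.53 FPKM, and the helicase subunits *Mcm3* and *Mcm6* 70.8 and 31.4 FPKM and 138 and 62.8 FPKM. Of 60 replication-dependent histone genes 46 had a ratio below 1, with a median of -0.32, 3 were lower by at least 2-fold and 1 was higher. These transcripts lack a poly(A) tail and the genes are near copies of each other, so single histone genes are uncertain.

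In contrast, none of 47 G2 and mitosis genes passed 2-fold in either direction, and the median log2 ratio was 0.00. *Cdk1*, the mitotic kinase, had 111 and 84.4 FPKM, *Ccnb2* 52.6 and 75.2 FPKM and *Cdc25b*, which activates CDK1, 14.8 and 25.2 FPKM. At E11 all 47 had a ratio above 1 and their median was 0.52. The lower values at E14 were those of G1 and S phase genes in these libraries. Of 19 p53 targets 8 were at least 1.5-fold lower, against 7.67% of all entries, with *Plk2* at 99.0 and 51.5 FPKM. The antiproliferative *Btg2* was higher, at 43.8 and 81.8 FPKM. Among chromatin genes, the maintenance methyltransferase *Dnmt1* and its partner *Uhrf1*, which act at replication forks, had 61.0 and 41.2 FPKM and 89.5 and 46.6 FPKM, whereas no Polycomb, DNMT or TET gene of 30 reached 2-fold. Of 23 imprinted genes, *Cdkn1c* and *H19* (5.67 and 13.8 FPKM) were at least 2-fold higher and *Mest* (239.8 and 81.5 FPKM) and *Peg10* (6.73 and 2.97 FPKM) at least 2-fold lower, so the imprinted genes had no common direction.

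**Figure D3:**
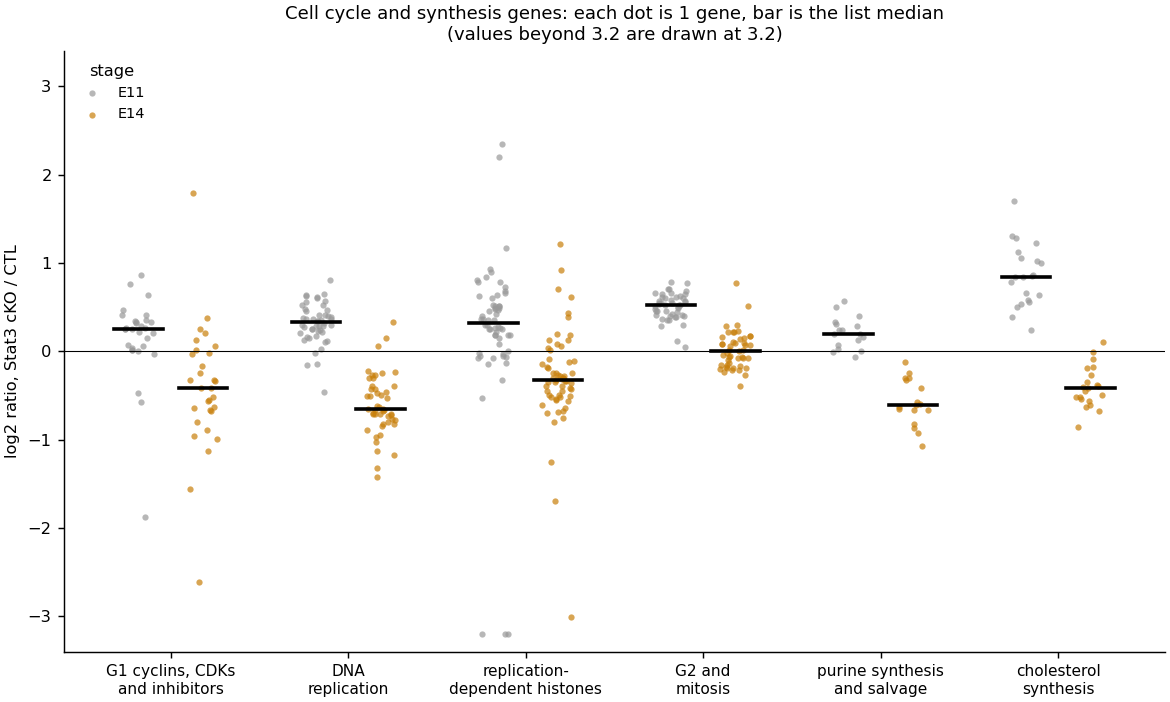
Log2 ratios of *Stat3* cKO to CTL are plotted for each gene of 6 lists, in grey for E11 and in orange for E14, with a bar at the list median. The E14 medians are -0.41 for G1 genes, -0.66 for DNA replication, -0.32 for histones, 0.00 for G2 and mitosis, -0.61 for purine synthesis and -0.42 for cholesterol synthesis, and each of the E11 medians is above 0.

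Genes of purine, pyrimidine and cholesterol synthesis were lower with them. All 17 purine genes had a ratio below 1, with a median log2 ratio of -0.61 against 0.20 at E11. *Ppat*, the first committed enzyme, had 30.6 and 14.6 FPKM and the salvage enzyme *Hprt* 61.4 and 32.2 FPKM. Of 21 pyrimidine and deoxynucleotide genes 19 had a ratio below 1, with *Umps*, of uridine monophosphate synthesis, at 37.2 and 17.4 FPKM and *Rrm2*, of ribonucleotide reductase, at 137 and 71.4 FPKM. Of 21 serine and folate genes 3 were at least 2-fold lower, against 1.69% of all entries, but 7 had a ratio above 1 and the median of -0.17 became -0.01 with upper-quartile scaling. The 3 were *Shmt1* at 45.0 and 15.9 FPKM, *Mthfd1l* at 13.2 and 4.58 FPKM and *Mthfd2* at 30.9 and 10.9 FPKM, while the serine enzymes *Phgdh* and *Psat1* had 269.8 and 321 FPKM and 311 and 329.9 FPKM. Of 21 cholesterol synthesis genes 20 had a ratio below 1 and none passed 2-fold, with a median of -0.42. *Idi1*, of isoprenoid synthesis, had 127 and 79.6 FPKM and *Fdps*, the farnesyl diphosphate synthase, 496 and 337 FPKM, but the regulator *Srebf2* had 26.8 and 26.7 FPKM. Fatty acid synthesis genes had no direction that held under the scalings, and 19 of 26 beta-oxidation genes had a ratio above 1, with *Cpt2* at 5.23 and 8.16 FPKM and *Cpt1a* at 12.7 and 17.5 FPKM.

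Genes of energy metabolism and protein homeostasis differed by list. Within mitochondria, 71 of 74 mitochondrial ribosomal protein genes had a ratio below 1 (median log2 ratio -0.27), as did 31 of 34 import genes and chaperones (-0.40) and 22 of 26 genes of the TCA cycle (-0.26). *Hspd1*, the matrix chaperonin, had 429 and 221 FPKM, and *Timm8a1*, an import chaperone of the intermembrane space on the X chromosome, 100.1 and 43.1 FPKM. *Cycs*, cytochrome c, had 185 and 95.0 FPKM, and *Ndufaf4*, an assembly factor of complex I, 18.5 and 9.80 FPKM. The medians of complex I subunits (-0.09) and of complexes III and IV (-0.12) lay inside the shift between scalings. Those of complex I assembly (-0.27, 12 of 13 below 1) and ATP synthase (-0.18, 17 of 19 below 1) kept their sign, at -0.12 and -0.03 with upper-quartile scaling. The ATP synthase median lay near the -0.17 of the 1243 entries highest at E14. All 34 proteasome genes had a ratio below 1, with a median of -0.33 and 1 past 1.5-fold. Of 19 cytosolic tRNA synthetases 18 were below 1 (median -0.43 at E14 and -0.44 at E11). Of 24 genes of the integrated stress response, *Atf4* had 113 and 76.4 FPKM, *Asns* 55.6 and 33.1 FPKM and the amino acid transporter *Slc7a1* 5.01 and 1.93 FPKM, and *Ddit4*, an inhibitor of mTOR, was higher, at 25.8 and 55.9 FPKM. Of 23 hypoxia genes 3 were at least 2-fold lower, against 1.69% of all entries, and none was 2-fold higher. Ratios below 1 numbered 14, near the 60.1% of all entries. The median of -0.16 became -0.01 with upper-quartile scaling. The list includes *Adm* (adrenomedullin) at 4.61 and 1.19 FPKM, *Hk2* (hexokinase) at 9.02 and 3.70 FPKM, *Bnip3* at 20.6 and 28.5 FPKM and *Vegfa*, nearly equal. Of 30 antioxidant genes *Gstm1* alone passed 2-fold, at 18.2 and 50.2 FPKM, while *Prdx1* had 400.4 and 257 FPKM.

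**Figure D4:**
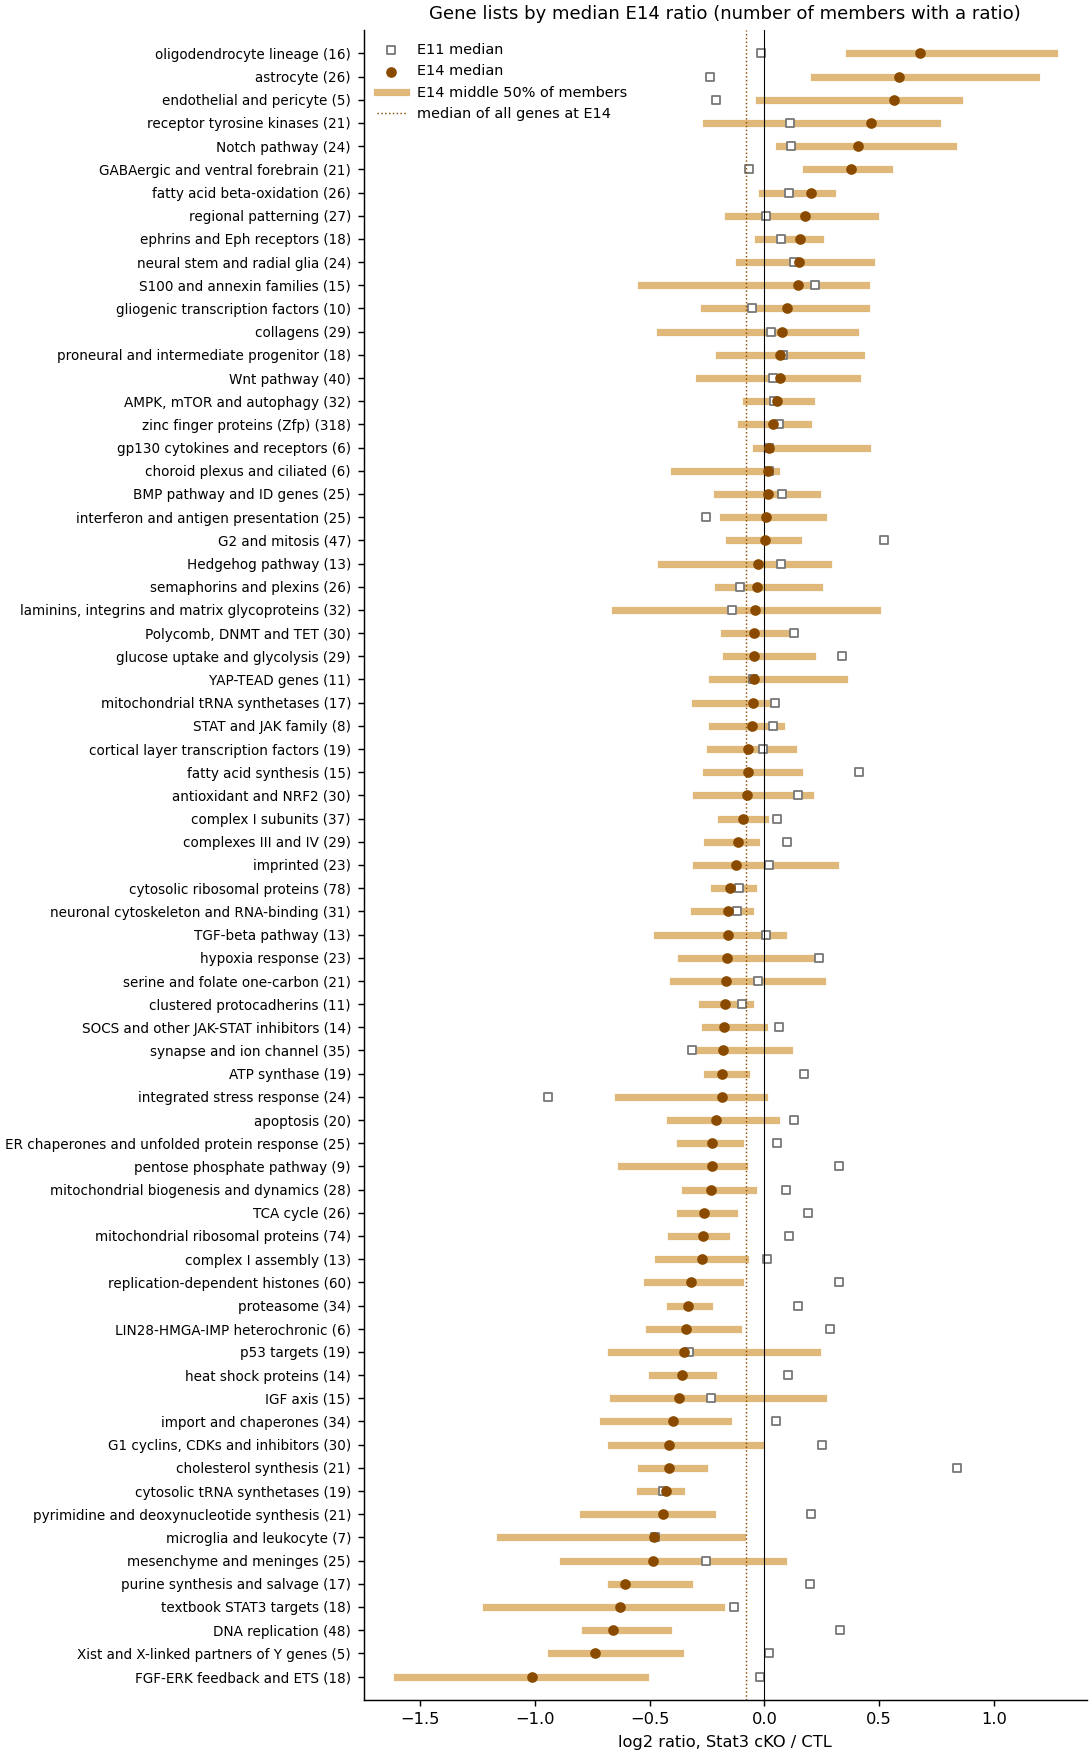
The 71 gene lists with at least 5 members with a ratio are ordered by their median log2 ratio at E14 (filled circles), with the middle 50% of members as a bar and the E11 median as a square. The lists run from the FGF-ERK list at -1.01 to the oligodendrocyte lineage at 0.68, and the dotted line marks the median of all genes at -0.08.

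Of the 71 lists, 56 kept the sign of their median under the deposited values, after centring all genes on 0 and with upper-quartile scaling. Of these 22 lay above 0 and 34 below. Among the large families, the 318 Zfp zinc finger genes had a median log2 ratio of 0.04 against -0.08 over all entries, none passed 2-fold, and 181 had a ratio above 1.

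The genotype ratios of both stages were set side by side. Across 12419 entries with both ratios Spearman's rho was -0.08 and Pearson's r -0.04, which is a correlation across genes of 1 pair of libraries at each stage. At E11, a ratio of 1.5 upward was reached by 271 entries (2.18%) and downward by 455 (3.66%). Past 1.5-fold at both stages, 35 entries were higher and 84 lower, and 66 were higher at E14 and lower at E11, against 40 with the reverse. The 84 made up 8.83% of the 951 entries lower at E14 and 18.6% of the 451 lower at E11, and the 35 made up 4.87% of the 719 higher at E14 and 12.9% of the 271 higher at E11. The 66 made up 9.18% and 14.6%, and the 40 made up 4.21% and 14.8%, of their E14 and E11 lists. Each of these shares lay above that of all entries on the same side, in the same and in opposite directions. Of the 230 entries at least 2-fold higher at E14, 114 had an E11 ratio above 1 and 111 below 1, and of the 210 lower entries 100 had an E11 ratio below 1 and 109 above 1. Past 1.5-fold at E11, 15 of the 230 went the same way and 34 the other way, whereas 36 of the 210 went the same way and 13 the other way. Among the 71 lists the medians of cholesterol synthesis lay farthest apart between the stages, with *Idi1* at 21.7 and 70.5 FPKM at E11, a log2 ratio of 1.70 against -0.68 at E14. The median log2 ratio of the integrated stress response was -0.94 at E11 and -0.19 at E14, or -0.03 at E14 with upper-quartile scaling. At E11, 20 of 24 members were at least 1.5-fold lower, against 3.66% of all entries. At E14, 7 were, against 7.67%, and 6 had a ratio above 1. *Atf4* had nearly the same log2 ratio, -0.57, at both stages, with 310.4 and 208 FPKM at E11, whereas *Asns* was at 286 and 141 FPKM at E11. Differences between the stages rest on single libraries and were not tested.

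**Figure D5:**
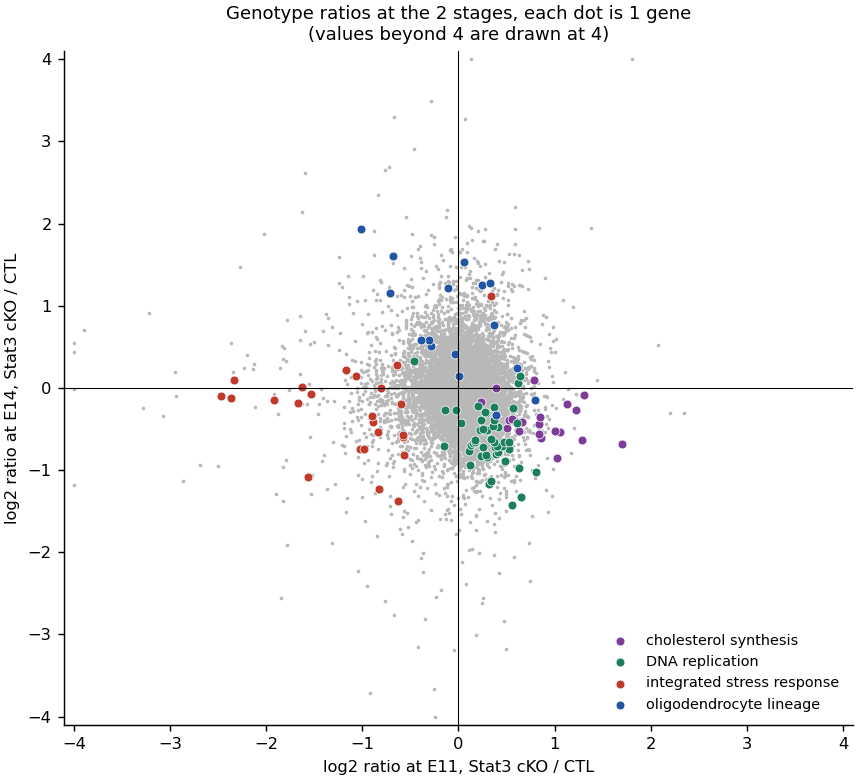
The x axis gives the log2 genotype ratio at E11 and the y axis that at E14, 1 dot per entry, with 4 gene lists in colour. Cholesterol and DNA replication genes lie mainly at the lower right, with E11 medians of 0.84 and 0.33 and E14 medians of -0.42 and -0.66, and oligodendrocyte lineage genes mainly above the horizontal line.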

How the data were processed

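Total RNA of the cultured progenitors was sequenced on an Illumina HiSeq instrument. The authors deposited FPKM values per gene and library, made with the TopHat and Cufflinks tools, and their processing notes name Bowtie 0.12.2 and the builds mm8 and mm9 with no role for either. Fragment counts and total depth were not used here. Entries were joined across the 4 libraries by gene and locus, with a minimum mean of 1 FPKM over the 4, and ratios of deposited values were formed without a pseudocount. Of 12449 entries, 19 were listed at 0 in an E14 library and had no ratio. With 1 library per group no test was made, and ratios of 2 and 1.5 served as limits of size. Lists are described by counts and medians beside those of all entries. Named genes were the 15 largest ratios in each direction among single-gene entries with a mean of at least 5 FPKM at E14, without small RNAs, predicted transcripts and pseudogenes, beside members of 75 gene lists. The members and lists were chosen with earlier results of these data known. The alternatives were pseudocounts of 0.1 and 1, median and upper-quartile scaling, other minimums and ratios, and leaving out joined, small RNA or sex chromosome entries. The scripts were tested on simulated data, with Python 3.11.15, numpy 2.4.6, pandas 2.3.3, scipy 1.17.1 and matplotlib 3.10.9. Some single genes of the lists are counted but not reported here by name.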

Additional observations from a re-analysis of the deposited data

Results flagged for a closer look

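Several lists had their median log2 genotype ratio on one side of 0 at E14 and on the other at E11, and none of these differences was tested, since each rests on 1 library per side. At E14 and E11 the medians were -0.34 and 0.29 for the LIN28, HMGA and IMP genes (-0.14 at E14 with no minimum and -0.50 at a minimum of 5 FPKM), 0.58 and -0.23 for astrocyte genes, 0.68 and -0.01 for the oligodendrocyte lineage and 0.56 and -0.21 for 5 endothelial and pericyte genes. The endothelial median at E14 turned to -0.0215 at a minimum of 5 FPKM and was 0.14 with a pseudocount of 1. They were -0.32 and 0.33 for histones, -0.41 and 0.25 for G1 genes, -0.66 and 0.33 for DNA replication, -0.61 and 0.20 for purine synthesis, -0.44 and 0.20 for pyrimidine synthesis and -0.42 and 0.84 for cholesterol synthesis.

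Among the named genes, *Emp1* had log2 ratios of 2.34 at E14 and -0.83 at E11, *Gpr17* 1.93 and -1.02, and *Rpl13a*, which shares its listed locus with small nucleolar RNAs, 1.88 and -2.02. These differences were not tested either.

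Some genes were listed at 0 in 1 E14 library and had no ratio. *Ralgds* was at 29.6 FPKM in E14 CTL and listed at 0 in E14 *Stat3* cKO, and at E11 it was listed at 0 in CTL and at 30.9 FPKM in *Stat3* cKO. *Cacna2d1* was listed at 0 in E14 CTL and at 8.43 FPKM in E14 *Stat3* cKO, with 17.8 and 14.7 FPKM at E11. *Sfi1* was listed at 0 and at 4.002 FPKM, with 4.65 and 4.13 FPKM at E11. An exact 0 in such values can be a failed estimate.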

How the results depend on the processing

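The main counts were 230 entries at least 2-fold higher and 210 lower. They became 114 and 123 with a pseudocount of 1, 102 and 125 at a minimum of 5 FPKM, 1553 and 912 with no minimum, 724 and 953 at a ratio of 1.5, and 59 and 52 at a ratio of 3. Upper-quartile scaling gave 343 higher and 137 lower. The median log2 ratio of all genes, -0.08, became -0.0644 with a pseudocount of 1, 0.0741 with upper-quartile scaling, -0.10 at a minimum of 5 FPKM and -0.0397 with no minimum. The number of lists with a median below 0, 49 of 71, stayed within 34 to 54. The log2 ratio of *Stat3* was -1.38 with upper-quartile scaling and -1.44 with a pseudocount of 1. The correlation between the stages was -0.08 as Spearman's rho and -0.0407 as Pearson's r. The stricter STAT motif lay in 3 of 206 windows of lower genes (1.46%), where the wider form lay in 8.74%. It lay in 1 of 202 windows of higher genes (0.495%) and in 1.19% of all windows, and these shares are a description only. Among the 56 lists whose sign held under the 3 scalings, medians that changed sign at a minimum of 5 FPKM were those of interferon genes (-0.11), BMP (-0.0058), proneural (-0.0380), gliogenic factors (-0.14), endothelial (-0.0215), choroid plexus (-0.23), collagens (-0.21) and S100 and annexins (-0.0444). With the minimum set over the E14 libraries, they were interferon (-0.0385), BMP (-0.0306), proneural (-0.0380) and gliogenic factors (-0.13), and without the sex chromosomes collagens (-0.0345). Of the lists with no such direction, semaphorins and plexins (-0.0320) became 0.0514 at either other minimum, 0.0452 with none and 0.0415 without the sex chromosomes, laminins, integrins and matrix glycoproteins (-0.0418) became 0.0794 at 5 FPKM, 0.32 with the minimum over the E14 libraries and 0.0288 with none, and imprinted genes (-0.12) became 0.0497 with no minimum. The receptor kinase median of 0.46 became 0.28 at a minimum of 5 FPKM and 0.14 with a pseudocount of 1. None of the 15 highest and 15 lowest ratios changed direction or fell under 2-fold in the 4 alternatives run on each. Other list members were not run singly. No paired analysis was possible because each group had 1 library and the columns carry no replicate numbers. The cause of these changes was not tested.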
